A study of Mus musculus with 12 samples.

Results

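Mouse embryonic stem cells labelled as lacking the genes Rara, Rarb and Rarg (triple knockout, TKO) were set against wild type cells (WT), both given ethanol vehicle without added all-trans retinoic acid (ATRA). The comparison used 3 TKO and 3 WT vehicle libraries of the 12 libraries in the series, chosen by the genotype and treatment that their column names give, and took in all 12362 genes that reached 1 FPKM (a read level per transcript length and library size) in 3 or more of the 12 libraries. TKO cells carry the genotype RARalpha-/-, RARbeta-/-, RARgamma-/-. Both genotypes have the strain label SV129 and grew on gelatinized plates in medium with leukemia inhibitory factor (LIF), with vehicle or 1 uM ATRA for 24 h. The labels do not give how many clones the TKO cells stand for, which exons the deletions removed, or whether the 3 libraries of 1 group are from cultures grown apart. P-values therefore measure only the spread between these libraries. The libraries of each group carry the letters D, F and G, and values below are given in that order.

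Retinoic acid receptors are nuclear receptors that sit on DNA as heterodimers with retinoid X receptors. Without ligand they can recruit corepressors to their target genes, and ligand exchanges these for coactivators. Culture medium and the cells themselves can hold traces of retinoids, so vehicle is not the same as the absence of ligand. Mouse embryonic stem cells resemble the naive epiblast of the blastocyst. In LIF medium they include cells that lean towards primed epiblast, the later state before gastrulation, or towards primitive endoderm, the extraembryonic layer that lays down a basement membrane.

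The libraries carried the markers of embryonic stem cells. All 8 markers of that cell type had a mean above 1 FPKM in both genotypes, and their summed level was 6312 to 6718 FPKM in TKO libraries and 7237 to 8413 FPKM in WT libraries. Of 10 fibroblast markers, which would come from feeder cells, 2 averaged 1 FPKM or more in either genotype, with a sum of 13.65 to 13.98 FPKM in TKO libraries and 10.7 to 16.1 FPKM in WT libraries. Col1a1, Col1a2, Col3a1, Dcn, Postn, Lum and Fap stayed under 1 FPKM in every vehicle library, and Lum and Fap were listed at 0 in all 6. Between 11397 and 11727 genes reached 1 FPKM in TKO libraries and 11429 to 11668 in WT libraries. Depth relative to the D library of WT was 1.02 to 1.27 in TKO libraries and 1.13 to 1.20 in the other WT libraries, and total depth is unknown.

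Each receptor gene was still read in TKO cells, at lower mean values than in WT cells. Rarg (GRCm38 chromosome 15, 102234938 to 102257517) had 15.4, 17.5 and 11.8 FPKM in TKO libraries, against 52.4, 35.8 and 55.8 FPKM in WT libraries. All TKO libraries lay below all WT libraries, and Rarg fell by 1.61 ± 0.19 (adjusted p = 2.5e-04). Rara (chromosome 11, 98927818 to 98974942) had 7.55, 9.03 and 9.03 FPKM in TKO libraries, against 14.1, 10.03 and 9.15 FPKM in WT libraries. The highest TKO value stayed just under the lowest WT value, and the log2 difference of −0.32 ± 0.14 (limma adjusted p = 0.121) did not pass. Rarb (chromosome 14, 16430839 to 16819156) had 0.122, 0.139 and 0.134 FPKM in TKO libraries, against 0.341, 0.506 and 0.235 FPKM in WT libraries, low in both genotypes and lower in all TKO libraries, with a log2 difference of −0.26 ± 0.13 (limma adjusted p = 0.161). Values per gene cannot show whether the remaining reads come from transcripts that still hold the deleted exons. Of the retinoid X receptor genes, whose products pair with these receptors, Rxrb had 26.4, 27.9 and 25.8 FPKM in TKO libraries, against 35.7, 29.9 and 33.5 FPKM in WT libraries and fell by 0.29 ± 0.09 (adjusted p = 0.0281), a call lost without the D or the G library of either genotype and in the 6 vehicle libraries alone. Rxra had 5.51 to 7.08 FPKM in TKO libraries and 6.96 to 7.58 FPKM in WT libraries, which overlap.

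Across all genes, 3046 of 12362 passed at an adjusted p under 0.05 (24.6%; limma with Benjamini-Hochberg adjustment), 1462 of them higher in TKO (11.8%) and 1584 lower (12.8%). A change of at least 2-fold on the log2(FPKM + 1) scale was seen for 231 of the genes that rose and 177 of those that fell. The TKO and WT libraries did not overlap for 40.4% of tested genes. The count of genes that passed was 1942 without the D library of TKO and 1934 without the D library of WT. Chromosomes 6 and 11, with 589 and 1062 tested genes, stood apart in the direction of their changes. Off these chromosomes 1119 of 10711 genes rose (10.4%) and 1372 fell (12.8%).

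Off chromosomes 6 and 11, the largest rises included those of Anxa1, Efhc2, Otx2, Igf2, Cyr61, Fetub, Klhl13, Mageb16, Zfp951, Id3 and Plagl1. Anxa1, a phospholipid-binding annexin of epithelial cells, had 13.3, 18.6 and 7.42 FPKM in TKO libraries, against 0.268, 0.341 and 0.402 FPKM in WT libraries. It was barely read in WT and rose by 3.32 ± 0.30 (adjusted p = 6.6e-05). Otx2, a homeobox factor that marks the passage to primed epiblast and later the anterior brain, had 19.2, 19.3 and 21.7 FPKM in TKO libraries, against 2.32, 3.21 and 1.43 FPKM in WT libraries. TKO libraries were close to each other and far above every WT library, with a rise of 2.70 ± 0.19 (adjusted p = 1.2e-05). Cyr61 (also named Ccn1), a secreted matrix protein, had 11.4, 15.01 and 10.8 FPKM in TKO libraries, against 1.59, 0.931 and 1.66 FPKM in WT libraries and rose by 2.49 ± 0.16 (adjusted p = 7.1e-06). For Anxa1 the F library of TKO was highest and the G library lowest, and no TKO library reached down to the WT values.

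The growth factor gene Igf2, which is imprinted, had 12.3, 14.03 and 3.41 FPKM in TKO libraries, against 0.779, 0.608 and 0.644 FPKM in WT libraries, a rise of 2.52 ± 0.50 (adjusted p = 0.00442). Another imprinted gene, the zinc finger gene Plagl1, had 4.34, 2.96 and 3.75 FPKM in TKO libraries, against 0.00918, 0.0163 and 0.00771 FPKM in WT libraries. Plagl1 was near 0 in every WT library and plainly read in every TKO library, with a rise of 2.20 ± 0.14 (adjusted p = 8.1e-06). Id3, an inhibitor of basic helix-loop-helix factors, had 18.7, 29.7 and 11.3 FPKM in TKO libraries, against 2.77, 1.90 and 5.24 FPKM in WT libraries and rose by 2.26 ± 0.36 (adjusted p = 0.00152). Klhl13, an X-linked adaptor of a CUL3 ubiquitin ligase, had 90.6, 89.9 and 88.1 FPKM in TKO libraries, against 13.97, 15.97 and 18.97 FPKM in WT libraries. Its TKO libraries agreed closely, and the rise was 2.40 ± 0.12 (adjusted p = 1.6e-06). Efhc2 and Mageb16, also on the X chromosome, rose by 2.73 ± 0.15 and 2.40 ± 0.22 (adjusted p = 2.6e-06 and 7.1e-05). The secreted protease inhibitor gene Fetub and the zinc finger gene Zfp951 rose by 2.44 ± 0.27 and 2.29 ± 0.12 (adjusted p = 1.7e-04 and 1.6e-06).

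The largest falls off these chromosomes were those of Igsf21, Pacsin1, Fbxo2, Prrx2, Slc15a1, Nphs1, Fignl2, Col9a2, Col13a1, Macrod1, Adamts14 and Cd97. Igsf21, an immunoglobulin-like adhesion protein of synapses, had 2.69, 3.09 and 2.31 FPKM in TKO libraries, against 19.03, 19.9 and 19.05 FPKM in WT libraries. The spread within each genotype was small, and the fall was 2.46 ± 0.10 (adjusted p = 3.8e-07), the smallest adjusted p of the 24 genes. Fbxo2, a ubiquitin ligase subunit that binds sugar chains of glycoproteins, had 8.27, 9.57 and 7.42 FPKM in TKO libraries, against 38.6, 38.1 and 45.3 FPKM in WT libraries and fell by 2.15 ± 0.10 (adjusted p = 1.6e-06). Prrx2, a homeobox gene of mesenchyme, had 3.01, 1.79 and 2.38 FPKM in TKO libraries, against 13.9, 12.6 and 13.6 FPKM in WT libraries and fell by 2.10 ± 0.16 (adjusted p = 2.6e-05). For all 3 genes every WT library lay far above every TKO library.

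Genes of the extracellular matrix were among the falls. The collagen chain gene Col13a1 had 0.679, 0.336 and 0.703 FPKM in TKO libraries, against 5.71, 7.44 and 3.75 FPKM in WT libraries, and Col9a2 had 0.896, 0.543 and 1.17 FPKM in TKO libraries, against 7.195, 8.59 and 4.69 FPKM in WT libraries. Both were at most 1.17 FPKM in any TKO library, and they fell by 2.05 ± 0.22 and 2.05 ± 0.23 (adjusted p = 1.6e-04 and 2.1e-04). Adamts14, which trims procollagen, had 1.16, 1.16 and 1.25 FPKM in TKO libraries, against 7.65, 6.87 and 9.64 FPKM in WT libraries and fell by 2.04 ± 0.13 (adjusted p = 8.9e-06). Cd97, an adhesion receptor coupled to G proteins, had 9.48, 6.75 and 8.58 FPKM in TKO libraries, against 38.1, 39.6 and 29.1 FPKM in WT libraries and fell by 1.98 ± 0.19 (adjusted p = 8.3e-05). The membrane-bending protein gene Pacsin1, the peptide transporter gene Slc15a1, the nephrin gene Nphs1, the AAA ATPase gene Fignl2 and the ADP-ribose hydrolase gene Macrod1 fell by 2.27, 2.06, 2.06, 2.05 and 2.04 on the log2 scale (adjusted p = 1.7e-04, 6.6e-05, 0.00443, 5.3e-06 and 9.7e-04).

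**Figure D1:**
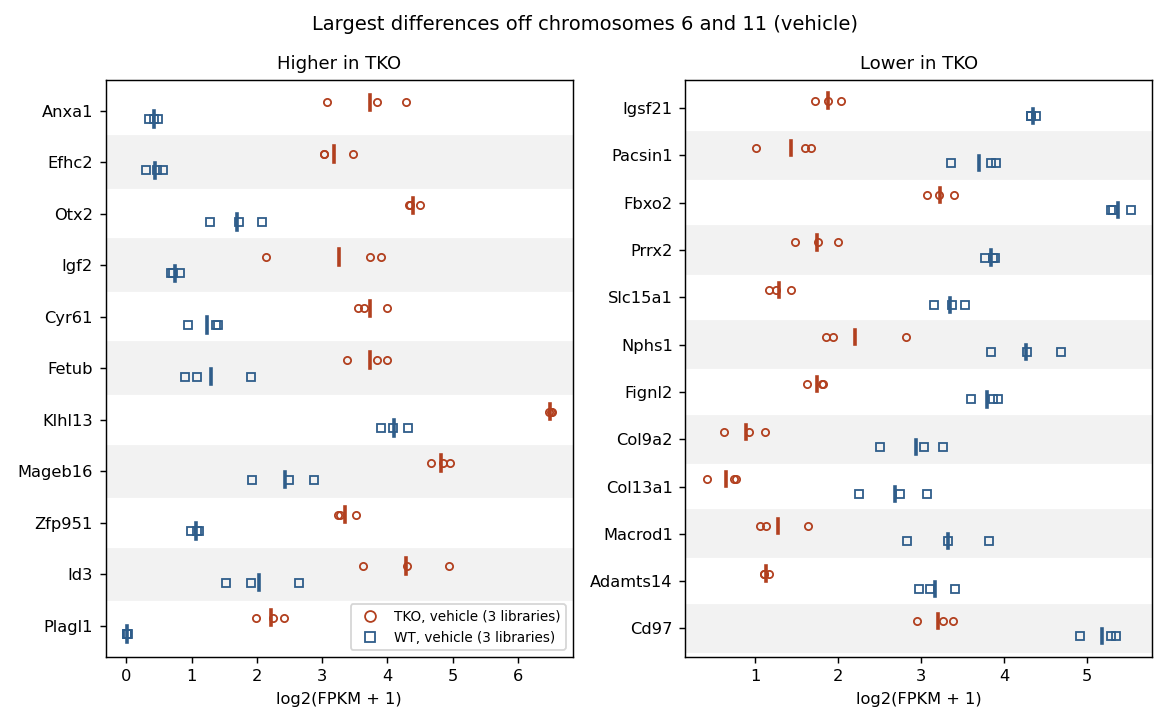
Log2(FPKM + 1) of genes with the largest rises (left) and the 12 with the largest falls (right) off chromosomes 6 and 11 among genes whose libraries do not overlap. Circles are the 3 TKO vehicle libraries, squares the 3 WT vehicle libraries and bars the group means; Igf2 and Id3 show the widest spread in TKO, and Plagl1 lies near 0 in WT.

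The same contrast was also made between the 3 TKO and 3 WT libraries given ATRA, which do not enter the vehicle differences but do enter the filter on low values and the estimate of spread. All 24 genes kept their direction there, and 22 passed (limma, adjusted p under 0.05). Of all 1462 genes that rose in vehicle, 1041 also rose with ATRA (71.2%, against 16.4% of all tested genes that rose there). Of the 1584 that fell, 1274 also fell with ATRA (80.4%, against 25.7% of all tested genes). Within TKO, libraries that share a letter deviated together across treatments, so the ATRA libraries are not fully separate samples. Their deviations correlated at 0.604, 0.864 and 0.728 (D, F and G). The fit took all 12 libraries as separate, so its estimate of spread may rest on fewer separate values. In the 6 vehicle libraries alone 2217 genes passed, against 3046. Id3 differed by 2.26 in vehicle and by 0.76 with ATRA (log2, TKO minus WT), and Nphs1 by −2.06 and −0.68; the difference between these values was not tested.

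Among known retinoic acid targets, no common direction appeared. Of 21 tested members 3 rose and 4 fell (14.3% and 19%, against 11.8% and 12.8% of all genes), with a median log2 difference of 0.02 against −0.02 over all genes. Stra8, which is required for entry into meiosis and is a classic retinoic acid target, had the largest difference. It had 16.3, 10.1 and 14.2 FPKM in TKO libraries, against 103, 166 and 89.5 FPKM in WT libraries, with all WT libraries far above all TKO libraries, and fell by 3.02 ± 0.23 (adjusted p = 1.9e-05). In the other direction, the homeobox gene Meis2 had 1.93, 1.78 and 1.78 FPKM in TKO libraries, against 0.4697, 0.841 and 0.400 FPKM in WT libraries and rose by 0.86 ± 0.12 (adjusted p = 6.0e-04). Crabp1, a cytosolic retinoic acid binding protein, had 23.8, 20.8 and 20.5 FPKM in TKO libraries, against 15.8, 12.7 and 11.7 FPKM in WT libraries and rose by 0.66 ± 0.12 (adjusted p = 0.00283). Cyp26a1, which encodes the enzyme that breaks down retinoic acid, had 1.04, 1.69 and 1.36 FPKM in TKO libraries, against 0.295, 0.676 and 0.507 FPKM in WT libraries. All TKO libraries lay above all WT libraries at these low levels, and the difference of 0.66 ± 0.24 (limma adjusted p = 0.0633) did not pass.

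The promoters of Stra8, Rarb and Cyp26a1 are shown because Stra8 had the largest fall of the list, while Rarb and Cyp26a1 were low in both genotypes. Each line gives the 250 bases before the RefSeq start (GRCm38.p6), 5′ to 3′ on the strand of the gene. Capitals mark receptor half-sites on either strand, searched as AGGTCA, as GGGTCA, as AGTTCA and as GGTTCA, which 38.6% of 32851 promoters hold at least once.
Stra8 (chr6:34920698-34920947, + strand): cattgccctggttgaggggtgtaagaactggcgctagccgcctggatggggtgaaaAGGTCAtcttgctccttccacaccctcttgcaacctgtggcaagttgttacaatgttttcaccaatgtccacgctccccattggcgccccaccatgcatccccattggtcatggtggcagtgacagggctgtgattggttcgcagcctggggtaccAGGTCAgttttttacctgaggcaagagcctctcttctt
Rarb (chr14:16575477-16575726, - strand): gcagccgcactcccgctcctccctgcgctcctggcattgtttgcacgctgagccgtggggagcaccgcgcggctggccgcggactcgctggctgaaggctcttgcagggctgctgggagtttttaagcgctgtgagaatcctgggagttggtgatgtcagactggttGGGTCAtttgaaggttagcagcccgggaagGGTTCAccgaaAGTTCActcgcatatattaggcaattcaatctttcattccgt
Cyp26a1 (chr19:37697558-37697807, + strand): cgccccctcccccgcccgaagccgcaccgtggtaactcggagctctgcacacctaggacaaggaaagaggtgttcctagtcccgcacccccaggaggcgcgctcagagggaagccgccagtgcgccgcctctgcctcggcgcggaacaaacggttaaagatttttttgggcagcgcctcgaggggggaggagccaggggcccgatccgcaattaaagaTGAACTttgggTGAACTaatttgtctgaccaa

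Rarb and Cyp26a1 each hold a direct repeat of half-sites with 5 bases between them, an arrangement found in 0.0883% of the promoters. Its half-sites begin 53 and 42 bases before the start in Rarb, and on the other strand they begin 32 and 21 bases before the start in Cyp26a1. Stra8 holds AGGTCA at 194 and at 38 bases before the start, and no such repeat in this window. These letters describe the sequence and do not show binding.

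Genes of primed epiblast were higher in TKO. Of 18 tested members 9 rose and 1 fell (50% and 5.56%, against 11.8% and 12.8% of all genes), with a median log2 difference of 0.57. Beside Otx2, the list was led by Cdh2, Sox4 and Igfbp2. Cdh2, the N-cadherin gene, had 1.79, 1.98 and 1.62 FPKM in TKO libraries, against 0.382, 0.197 and 0.297 FPKM in WT libraries and rose by 1.12 ± 0.10 (adjusted p = 6.6e-05). Sox4, a transcription factor of many progenitor cells, had 9.797, 6.88 and 7.68 FPKM in TKO libraries, against 2.03, 1.31 and 1.29 FPKM in WT libraries and rose by 1.84 ± 0.20 (adjusted p = 1.7e-04). Igfbp2, a binding protein of insulin-like growth factors, had 181, 223 and 175 FPKM in TKO libraries, against 96.8, 99.4 and 100.4 FPKM in WT libraries and rose by 0.95 ± 0.12 (adjusted p = 3.2e-04). For all of these the groups were well apart. Tead2, the member that fell, averaged 29.6 FPKM in TKO and 49.4 FPKM in WT (limma adjusted p = 0.00118).

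Other genes often used as signs of the primed state did not pass the test. The DNA methyltransferase gene Dnmt3b averaged 28.5 ± 12.98 FPKM in TKO and 19.7 ± 7.62 in WT (SD, n = 3 each; limma adjusted p = 0.328). Pou3f1, a POU factor of the epiblast, averaged 3.104 ± 1.06 FPKM in TKO and 3.595 ± 0.396 in WT, and the growth factor gene Fgf15 averaged 5.16 ± 2.69 FPKM in TKO and 5.05 ± 0.603 in WT, with overlapping libraries. Fgf5, Lef1 and Enpp2 were below the filter on low values and were not tested. Of these, Fgf5 averaged 0.22 FPKM in TKO and 0.072 FPKM in WT. Otx2, Cdh2 and Sox4 passed in each fit that left out 1 library, as did Igfbp2.

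Naive pluripotency genes stood near the background. Of 21 tested members 3 rose and 1 fell (14.3% and 4.76%, against 11.8% and 12.8% of all genes), with a median of −0.06. Tdh, which encodes threonine dehydrogenase, an enzyme that mouse embryonic stem cells depend on, had 320.3, 247 and 268 FPKM in TKO libraries, against 131, 84.8 and 92.7 FPKM in WT libraries and rose by 1.45 ± 0.17 (adjusted p = 2.7e-04). Nr5a2, a nuclear receptor that supports Pou5f1 expression, had 21.1, 23.9 and 24.3 FPKM in TKO libraries, against 13.9, 12.5 and 12.98 FPKM in WT libraries and rose by 0.77 ± 0.12 (adjusted p = 9.7e-04), and the secreted protein gene Spp1 rose by 1.19 ± 0.27 (adjusted p = 0.00908). Klf5, a Krüppel-like factor of naive cells, had 148, 96.8 and 140.1 FPKM in TKO libraries, against 213, 253 and 259 FPKM in WT libraries and fell by 0.93 ± 0.26 (adjusted p = 0.0225), a call lost without the F library of TKO or the F or G library of WT. Without the G library of TKO 3 members fell. Nanog had 429.5, 382 and 403 FPKM in TKO libraries, against 436, 683 and 387 FPKM in WT libraries, with overlap, as for Zfp42 (Rex1). Esrrb did not overlap, with every TKO library below every WT library, and did not pass (limma adjusted p = 0.456). Pou5f1, which encodes OCT4, averaged 1085 ± 166 FPKM in TKO and 1351 ± 27.5 FPKM in WT, a difference of −0.33 ± 0.12 (limma adjusted p = 0.0638).

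Of 17 core pluripotency genes 5 rose and 1 fell (29.4% and 5.88%, against 11.8% and 12.8% of all genes), with a median of 0.23. Rif1, a telomere and replication timing protein, and Zfp281, a zinc finger factor, rose by 0.58 ± 0.12 (adjusted p = 0.00615) and 0.51 ± 0.11 (adjusted p = 0.00768), and Dppa5a fell by 0.34 ± 0.08 (adjusted p = 0.00852). The number that rose was 2 without the F library of TKO, without the D library of WT or without the F library of WT, and 3 without the D library of TKO. Sox2, which binds DNA beside OCT4, had 299.8, 249 and 294 FPKM in TKO libraries, against 265, 271 and 237 FPKM in WT libraries and overlapped.

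Most tested genes of primitive endoderm rose. Of 17 tested members 11 rose and 0 fell (64.7% higher, against 11.8% of all genes), with a median log2 difference of 0.72. Cited1, a transcriptional coactivator, had 2.39, 4.199 and 2.43 FPKM in TKO libraries, against 0.184, 0.166 and 0.733 FPKM in WT libraries and rose by 1.55 ± 0.23 (adjusted p = 9.7e-04). Sox17, a factor of endoderm, had 1.26, 1.66 and 1.81 FPKM in TKO libraries, against 0.383, 0.733 and 0.367 FPKM in WT libraries and rose by 0.79 ± 0.13 (adjusted p = 0.0014). Dab2, an endocytic adaptor of endoderm, had 6.44, 9.13 and 6.27 FPKM in TKO libraries, against 2.05, 3.21 and 1.74 FPKM in WT libraries and rose by 1.32 ± 0.23 (adjusted p = 0.00245). F3, the tissue factor gene, had 9.67, 12.2 and 16.3 FPKM in TKO libraries, against 5.38, 6.15 and 6.305 FPKM in WT libraries and rose by 0.96 ± 0.17 (adjusted p = 0.00285).

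The transcription factors among them were at low levels, while Sparc, a matrix protein, averaged 219.7 FPKM in TKO and 148 FPKM in WT (limma adjusted p = 0.0361). Gata6, an early factor of the lineage, had 2.99, 4.04 and 2.65 FPKM in TKO libraries, against 1.02, 1.52 and 0.701 FPKM in WT libraries, and passed (limma adjusted p = 0.0104). Gata4 had 4.40, 5.36 and 4.08 FPKM in TKO libraries, against 3.405, 3.25 and 1.46 FPKM in WT libraries, and did not pass (limma adjusted p = 0.067). All TKO libraries lay above all WT libraries for both, as for 19.1% of all tested genes. Over the 9 markers of the cell type the summed level was 18.5 to 25.4 FPKM in TKO libraries and 6.71 to 12.3 FPKM in WT libraries, and Afp and Ttr, made by mature endoderm, stayed under 1 FPKM throughout. In bulk RNA, more cells of a type and more RNA per cell cannot be told apart. The count of primitive endoderm genes that rose was 6 without the D library of WT and 6 with a filter at 5 FPKM, where fewer members were tested.

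Basement membrane genes, whose products primitive endoderm secretes, were also higher in TKO. Of 16 tested members 8 rose and 1 fell (50% and 6.25%, against 11.8% and 12.8% of all genes), with a median of 0.36. Lama5, a laminin chain, had 25.99, 30.7 and 26.4 FPKM in TKO libraries, against 15.7, 12.99 and 15.6 FPKM in WT libraries and rose by 0.87 ± 0.11 (adjusted p = 3.7e-04). Hspg2, the perlecan gene, had 41.97, 44.8 and 41.8 FPKM in TKO libraries, against 25.9, 22.02 and 24.98 FPKM in WT libraries and rose by 0.80 ± 0.10 (adjusted p = 4.5e-04). Lamb1, another laminin chain, had 23.3, 33.3 and 32.9 FPKM in TKO libraries, against 13.1, 11.8 and 12.4 FPKM in WT libraries and rose by 1.18 ± 0.17 (adjusted p = 7.8e-04). Nid2 (nidogen 2), a linker protein, had 92.4, 99.01 and 87.3 FPKM in TKO libraries, against 60.3, 47.1 and 62.8 FPKM in WT libraries and rose by 0.71 ± 0.11 (adjusted p = 0.00137). None of these 4, picked by adjusted p, overlapped between genotypes, which holds for 40.4% of all tested genes. The number that rose was 7 or 8 in every fit that left out 1 library. Col4a1, the type IV collagen chain at the core of the membrane, had 38.1, 64.6 and 40.2 FPKM in TKO libraries, against 19.7, 22.4 and 20.2 FPKM in WT libraries.

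Targets of YAP and TEAD, the transcriptional arm of the Hippo pathway, formed another group that was higher. Of 19 tested members 8 rose and 2 fell (42.1% and 10.5%, against 11.8% and 12.8% of all genes), with a median of 0.45. In every fit that left out 1 library 8 or 9 rose. Beside Cyr61, Ctgf (also named Ccn2), a secreted matrix protein, had 12.9, 14.2 and 18.1 FPKM in TKO libraries, against 2.54, 2.12 and 3.202 FPKM in WT libraries and rose by 2.14 ± 0.15 (adjusted p = 1.3e-05). Amotl2, an angiomotin that holds YAP back, had 42.02, 28.4 and 37.3 FPKM in TKO libraries, against 12.96, 8.46 and 11.4 FPKM in WT libraries and rose by 1.63 ± 0.20 (adjusted p = 3.4e-04). Ajuba, a LIM protein that inhibits the LATS kinases, had 91.8, 66.97 and 77.7 FPKM in TKO libraries, against 30.4, 21.9 and 34.3 FPKM in WT libraries and rose by 1.43 ± 0.19 (adjusted p = 4.5e-04). The TKO libraries were above the WT libraries for each. Nuak2, a kinase gene of the list, had 4.06, 3.66 and 4.01 FPKM in TKO libraries, against 5.89, 7.62 and 7.37 FPKM in WT libraries and fell by 0.69 ± 0.11 (adjusted p = 0.00134). The number that fell was 1 in the fits that left out 1 library, except without the G library of WT, where it was 2.

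Promoters of 4 of the genes that rose are shown because they hold the letters of the TEAD motif. The letters GGAATG were searched on both strands in the 250 bases before the RefSeq start (GRCm38.p6), and 12.6% of 32851 promoters hold a match. Of the 8 genes of the list that rose 6 had a promoter entry and 4 of these hold the letters (capitals, read as CATTCC where the match is on the other strand). Of the 9 that did not pass 5 had an entry and 1 holds them, of the 3 members not tested all had an entry and 2 hold them (Ankrd1 and Axl), and of the 2 that fell 1 had an entry and does not hold them.
Cyr61 (chr3:145649986-145650235, - strand): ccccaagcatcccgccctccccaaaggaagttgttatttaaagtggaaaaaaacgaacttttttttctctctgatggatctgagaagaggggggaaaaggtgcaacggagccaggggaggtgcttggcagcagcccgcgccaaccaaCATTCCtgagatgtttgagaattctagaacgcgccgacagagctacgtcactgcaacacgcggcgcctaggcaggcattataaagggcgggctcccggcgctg
Amotl2 (chr9:102717554-102717803, + strand): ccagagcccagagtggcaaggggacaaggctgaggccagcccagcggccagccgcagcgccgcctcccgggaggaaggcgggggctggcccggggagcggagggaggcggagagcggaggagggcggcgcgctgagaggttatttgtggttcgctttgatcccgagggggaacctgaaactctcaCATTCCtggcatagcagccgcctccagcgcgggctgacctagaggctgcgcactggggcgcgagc
Ajuba (chr14:54577662-54577911, - strand): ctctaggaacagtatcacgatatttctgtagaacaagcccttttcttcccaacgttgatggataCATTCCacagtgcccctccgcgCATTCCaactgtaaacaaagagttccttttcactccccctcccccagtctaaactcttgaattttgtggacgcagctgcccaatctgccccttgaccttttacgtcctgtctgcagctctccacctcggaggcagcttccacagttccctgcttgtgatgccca
Crim1 (chr17:78199998-78200247, + strand): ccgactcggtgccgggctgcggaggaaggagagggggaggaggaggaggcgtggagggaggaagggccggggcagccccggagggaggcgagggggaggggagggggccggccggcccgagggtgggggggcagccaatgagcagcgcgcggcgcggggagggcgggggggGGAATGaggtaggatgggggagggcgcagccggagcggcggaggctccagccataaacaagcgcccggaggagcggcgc

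The match lies 103 to 98 bases before the start in Cyr61, 65 to 60 in Amotl2 and 79 to 74 in Crim1, and Ajuba holds a pair, at 186 to 181 and 164 to 159. Crim1, a membrane protein with cysteine-rich repeats, had 1.82, 1.88 and 2.06 FPKM in TKO libraries, against 0.8205, 0.684 and 0.860 FPKM in WT libraries. A match describes these letters only, and no binding was measured.

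Some genes of simple epithelium were higher. Of 23 tested members 6 rose and 0 fell (26.1% higher, against 11.8% of all genes; median 0.19). After Anxa1, Anxa3 had 11.3, 10.9 and 8.97 FPKM in TKO libraries, against 3.21, 4.58 and 4.03 FPKM in WT libraries and rose by 1.21 ± 0.17 (adjusted p = 6.4e-04). Krt18, a keratin of simple epithelia and trophectoderm, had 31.5, 47.2 and 14.2 FPKM in TKO libraries, against 5.802, 6.08 and 5.46 FPKM in WT libraries and rose by 2.09 ± 0.43 (adjusted p = 0.00545). Krt19, a keratin gene on chromosome 11, had 6.44, 14.3 and 6.88 FPKM in TKO libraries, against 2.08, 1.89 and 2.57 FPKM in WT libraries and rose by 1.61 ± 0.28 (adjusted p = 0.0025). In TKO the F library was highest for both keratins. The cadherin gene Cdh1 averaged 82.5 ± 7.27 FPKM in TKO and 89.5 ± 8.56 in WT, and Epcam 33.1 ± 4.72 FPKM in TKO and 36.3 ± 3.47 in WT (SD, n = 3 each), with overlap. The number that rose was 4 without the D or without the G library of WT.

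Of 26 genes of p53 signalling and apoptosis 9 rose and 2 fell (34.6% and 7.69%, against 11.8% and 12.8% of all genes). Their median was 0.35. Mdm2, the ubiquitin ligase that p53 induces and that degrades it, had 62.6, 70.1 and 62.4 FPKM in TKO libraries, against 39.5, 40.5 and 39.1 FPKM in WT libraries and rose by 0.70 ± 0.10 (adjusted p = 9.8e-04). Trp53inp1, a p53-induced nuclear protein, had 62.7, 65.8 and 63.3 FPKM in TKO libraries, against 31.6, 24.4 and 38.98 FPKM in WT libraries and rose by 1.01 ± 0.18 (adjusted p = 0.00283). The polo-like kinase gene Plk2 rose by 1.71 ± 0.32 (adjusted p = 0.00338), and the cyclin gene Ccng1, on chromosome 11, by 0.79 ± 0.19 (adjusted p = 0.0124). Cdkn1a, the cell cycle inhibitor p21, had 22.5, 24.4 and 22.6 FPKM in TKO libraries, against 23.3, 24.8 and 14.7 FPKM in WT libraries, which overlap. Bax averaged 247 ± 3.32 FPKM in TKO and 242 ± 10.9 FPKM in WT, with overlap. The number that rose was 4 without the D or without the F library of TKO and 5 without the D or without the F library of WT, and the number that fell was 0 to 3 over the fits that left out 1 library.

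**Figure D2:**
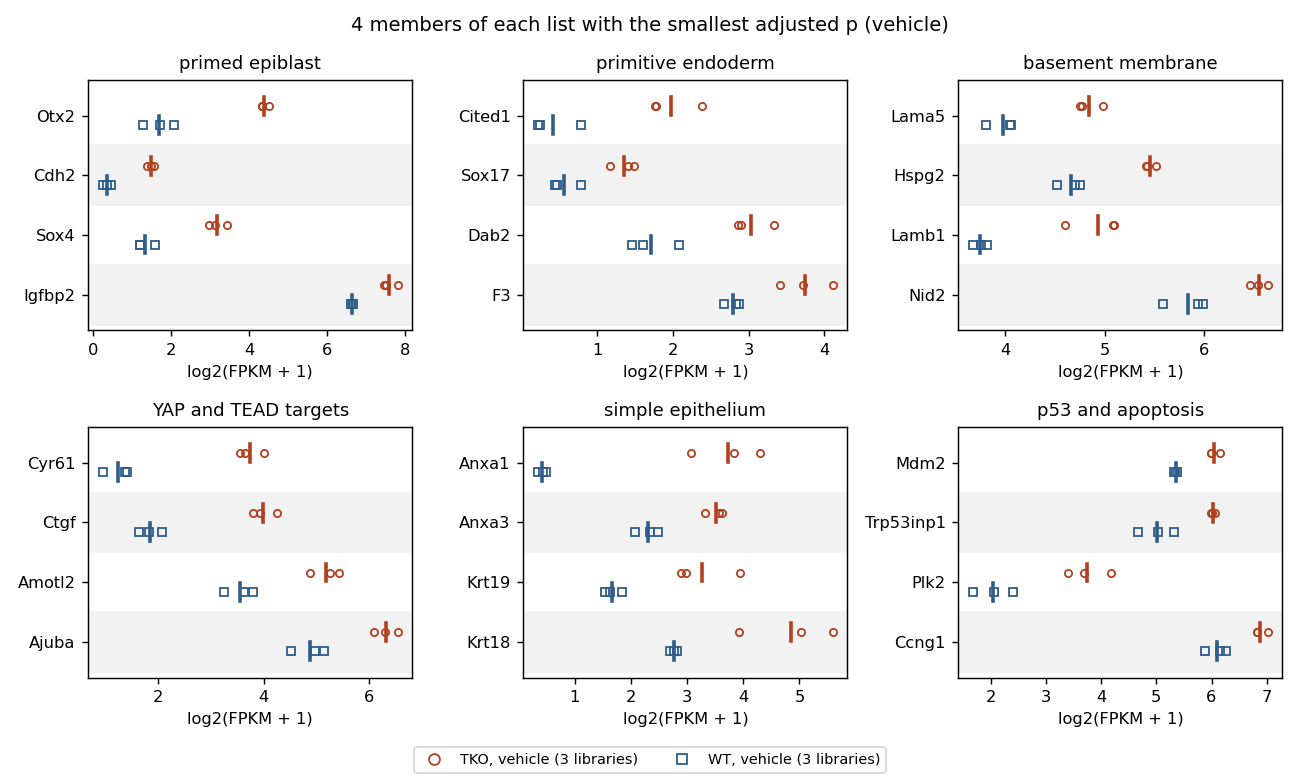
Log2(FPKM + 1) of the 4 members with the smallest adjusted p in each of 6 gene lists. Circles are the 3 TKO vehicle libraries, squares the 3 WT vehicle libraries and bars the group means. None of these genes, picked by adjusted p, overlaps between the genotypes, which holds for 40.4% of all tested genes. Krt18 shows the widest spread in TKO (14.2 to 47.2 FPKM).

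Genes of cytosolic ribosomal proteins were lower. Of 79 tested members 38 fell and 4 rose (48.1% and 5.06%, against 12.8% and 11.8% of all genes), with a median of −0.21. Off chromosomes 6 and 11 37 of 71 fell. Rps24 averaged 1649 ± 18.3 FPKM in TKO and 2806 ± 247 FPKM in WT and fell by 0.76 ± 0.07 (adjusted p = 8.3e-05). It lies in a stretch of chromosome 14, described below, where 29 of 51 tested genes fell. Rpl32, Rps14 and Rpl28, all well read, fell by 0.67 ± 0.10, 0.61 ± 0.09 and 0.47 ± 0.08 (adjusted p = 9.2e-04, 9.8e-04 and 0.00149). After quantile normalization 19 fell and 8 rose, with a median of −0.06. The number that fell was 22 in a fit of the 6 vehicle libraries alone and without the D library of TKO or of WT. It was 23 without the F library of WT.

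Cholesterol synthesis had a median log2 difference of −0.46, with 4 of 23 tested members lower and 0 higher (17.4% lower, against 12.8% of all genes). The isomerase gene Ebp had 18.99, 18.98 and 17.3 FPKM in TKO libraries, against 27.1, 29.5 and 30.1 FPKM in WT libraries and fell by 0.62 ± 0.09 (adjusted p = 6.4e-04). Pmvk, a kinase of the mevalonate pathway, had 40.1, 40.02 and 30.7 FPKM in TKO libraries, against 80.5, 71.8 and 110.4 FPKM in WT libraries and fell by 1.21 ± 0.18 (adjusted p = 9.5e-04). Mvk, the mevalonate kinase gene, fell by 0.61 ± 0.13 (adjusted p = 0.00716), and Fdps, which makes farnesyl diphosphate, fell by 0.90 ± 0.29 (adjusted p = 0.0431) with 1 TKO library above the lowest WT library. Without the F library of TKO 7 members fell and the median was −0.72, and without the G library of WT the median was −0.19. The call of Fdps was lost without the D or the G library of either genotype.

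Of 17 genes of serine, glycine and threonine metabolism 3 rose and 5 fell (17.6% and 29.4%, against 11.8% and 12.8% of all genes). Their median was −0.25. Phgdh and Psat1, the first enzymes of serine synthesis, fell by 1.04 ± 0.26 (adjusted p = 0.0136) and 0.71 ± 0.19 (adjusted p = 0.0178). Tdh and the dimethylglycine dehydrogenase gene Dmgdh rose, Dmgdh by 1.24 ± 0.25 (adjusted p = 0.00492). The number that fell was 1 without the F library of TKO and 2 without the D library of TKO or of WT.

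Signalling pathways changed in single members. Of 24 genes of the Nodal and TGF-beta pathway 3 rose and 6 fell (12.5% and 25.0%, against 11.8% and 12.8% of all genes). Their median was −0.06. The ligand gene Nodal had 44.3, 49.8 and 37.7 FPKM in TKO libraries, against 23.7, 25.7 and 21.98 FPKM in WT libraries and rose by 0.85 ± 0.12 (adjusted p = 8.8e-04), and the activin antagonist gene Fst had 4.96, 2.32 and 3.44 FPKM in TKO libraries, against 0.475, 1.03 and 0.282 FPKM in WT libraries and rose by 1.51 ± 0.24 (adjusted p = 0.0012). Furin, which cleaves the precursor, and Tdgf1 (Cripto), the Nodal coreceptor, fell by 0.52 ± 0.08 (adjusted p = 0.00103) and 0.66 ± 0.12 (adjusted p = 0.00318). Lefty1, a feedback inhibitor of Nodal, had 16.97, 30.6 and 52.2 FPKM in TKO libraries, against 71.99, 78.1 and 76.2 FPKM in WT libraries. Without the D library of TKO, or the D or G library of WT, 3 members fell.

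In the BMP pathway 4 of 17 tested genes rose and 2 fell (23.5% and 11.8%, against 11.8% and 12.8% of all genes). Their median was 0.18. Id2, a target of BMP signals in stem cells, had 13.7, 15.7 and 14.2 FPKM in TKO libraries, against 3.93, 2.45 and 4.93 FPKM in WT libraries and rose by 1.73 ± 0.20 (adjusted p = 2.3e-04), as Id3 did. Id1 averaged 42.55 ± 29.95 FPKM in TKO and 72.24 ± 20.85 FPKM in WT (SD), lower in TKO with overlap, and did not pass (limma adjusted p = 0.186). Nog, which encodes the BMP antagonist noggin and lies on chromosome 11, rose by 0.75 ± 0.16 (adjusted p = 0.00554). Dusp9, a phosphatase of MAP kinases that BMP induces, had 23.8, 32.6 and 26.6 FPKM in TKO libraries, against 69.7, 69.0 and 90.1 FPKM in WT libraries and fell by 1.43 ± 0.14 (adjusted p = 9.9e-05).

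Of 18 genes of the WNT pathway 6 rose and 2 fell (33.3% and 11.1%, against 11.8% and 12.8% of all genes). Their median was 0.21, and off chromosomes 6 and 11 3 of 13 rose. Tcf7l1, a repressor at WNT target genes that lies on chromosome 6, had 27.2, 33.5 and 29.7 FPKM in TKO libraries, against 51.9, 57.3 and 59.3 FPKM in WT libraries and fell by 0.88 ± 0.10 (adjusted p = 2.1e-04). Notum, which inactivates WNT proteins, and Axin2, a feedback target, both on chromosome 11, rose by 1.51 ± 0.28 (adjusted p = 0.00321) and 1.00 ± 0.20 (adjusted p = 0.00441). Porcn, which adds the lipid that WNT secretion needs, fell by 0.92 ± 0.17 (adjusted p = 0.00363). The number that rose was 3 without the F library of TKO or the D library of WT.

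**Figure D3:**
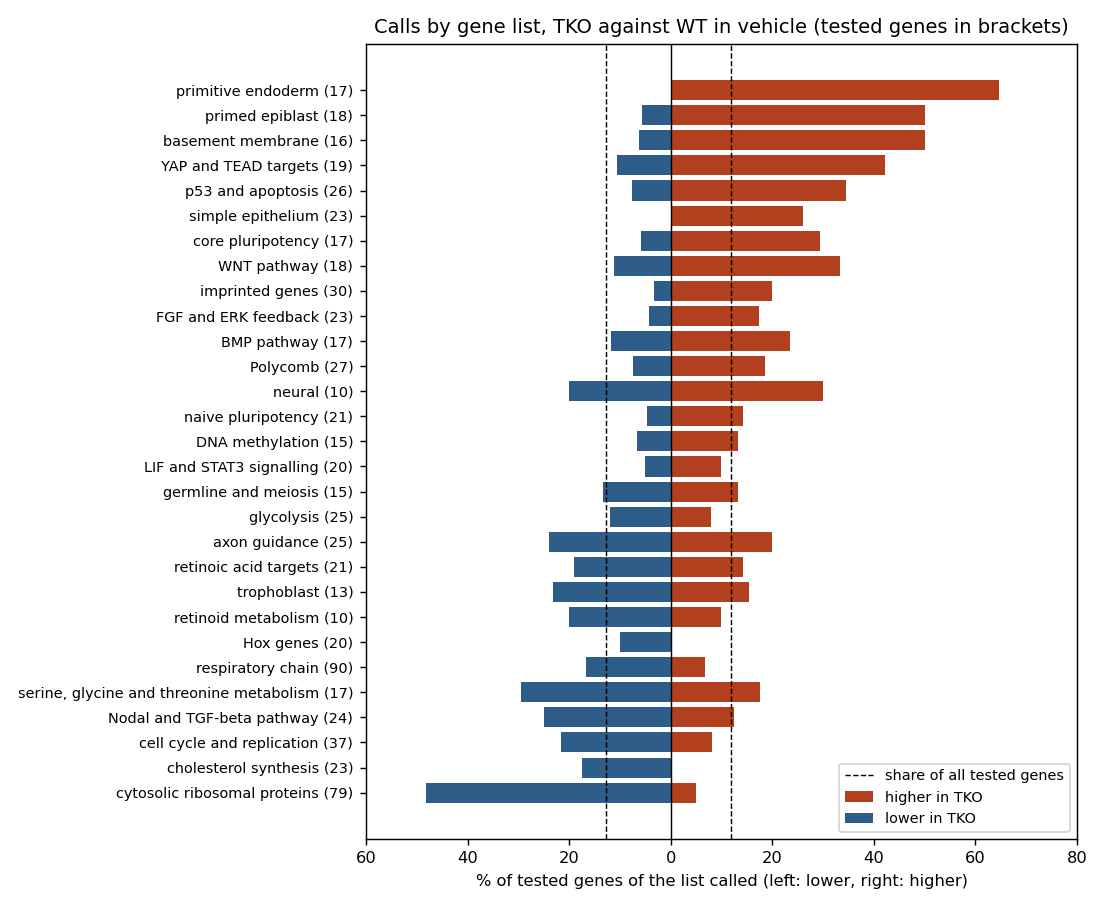
Share of the tested genes of each list with at least 10 tested members that were higher (right) or lower (left) in TKO at an adjusted p under 0.05, with the number tested in brackets. Dashed lines mark the shares of all tested genes, 11.8% higher and 12.8% lower; primitive endoderm, at 64.7% higher, and ribosomal proteins, at 48.1% lower, lie at the ends.

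On chromosome 6, 37 of 589 tested genes rose and 156 fell (6.28% and 26.5%). The median log2 difference of its genes from the WT mean, less that of the autosomes other than 6 and 11, was −0.240, −0.184 and −0.146 in the TKO libraries and 0.0005, 0.0079 and −0.0020 in the WT libraries. Every TKO library lay below every WT library, and the means differed by −0.19, a ratio of 0.875 (exact permutation test over libraries, two-sided p = 0.1, the smallest that 3 against 3 allows). On chromosome 11, 306 of 1062 tested genes rose and 56 fell (28.8% and 5.27%). The median was 0.288, 0.253 and 0.199 in the TKO libraries and −0.0086, −0.0031 and 0.0177 in the WT libraries, a difference of 0.24 and a ratio of 1.19 (exact permutation test, two-sided p = 0.1). The other chromosomes had differences from −0.034 on chromosome 7 to 0.088 on chromosome 1. In the same exact permutation test chromosomes 1, 7, 8, 9, 14, 17 and X also had p = 0.1. The p-value thus does not set chromosomes 6 and 11 apart, and only the size of their differences does. D was the library farthest from WT on both chromosomes and G the nearest.

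The shift did not cover either chromosome evenly. Tested genes were taken in table order in windows of about 50. On chromosome 6 the first 4 windows had medians of −0.10 to 0.17, and the other 8 had medians of −0.40 to −0.18. On chromosome 11 the first 7 windows had medians of −0.02 to 0.15, and the other 14 had medians of 0.09 to 0.46. The stretch after the step on chromosome 6 ran from Gadd45a to Bicd1 (GRCm38 chromosome 6, 67035096 to 149563329), and that on chromosome 11 from Rpl26 to B3gntl1 (chromosome 11, 68901583 to 121673153). The steps were placed after the values were seen, so the values by stretch are a description with no test.

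From Gadd45a to Bicd1, 136 of 392 tested genes fell and 11 rose, and 333 had a negative difference. In genes at 5 FPKM or more in WT the median ratio of TKO to WT was 0.781, against 0.973 over the other autosomes. The relative level was −0.368, −0.261 and −0.239 in the TKO libraries and 0.0001, 0.0054 and 0.0047 in the WT libraries. Before the step, 26 of 197 genes rose and 20 fell. There the libraries of the genotypes overlapped, at 0.075, −0.0069 and 0.040 in TKO and 0.0018, 0.014 and −0.017 in WT.

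From Rpl26 to B3gntl1, 261 of 705 tested genes rose and 21 fell, and 551 had a positive difference. The median ratio of TKO to WT was 1.304 in genes at 5 FPKM or more in WT. The relative level was 0.421, 0.361 and 0.265 in the TKO libraries and −0.0088, −0.0069 and 0.018 in the WT libraries. Before the step 45 of 357 genes rose and 35 fell, and the relative level was 0.033 to 0.044 in TKO libraries and −0.0054 to 0.014 in WT libraries.

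**Figure D4:**
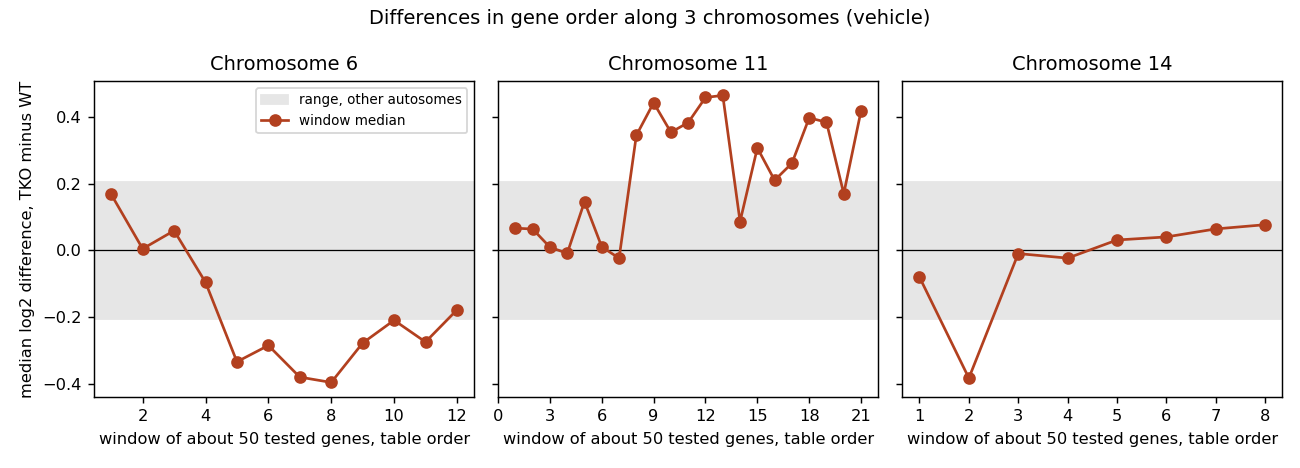
Median log2 difference (TKO minus WT, vehicle) in windows of about 50 tested genes in table order along chromosomes 6, 11 and 14; the grey band is the range over 197 windows of the other autosomes, −0.20 to 0.20. Chromosome 6 drops below the band at window 5, with window 12 back inside. Chromosome 11 rises above the band at window 8, with windows 14 and 20 back inside, and chromosome 14 leaves it in window 2 alone.

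A shorter stretch lay on chromosome 14. From Adk to Timm23 (GRCm38 chromosome 14, 21052574 to 32201898) 29 of 51 tested genes fell and 0 rose, and 48 had a negative difference. The relative level was −0.482, −0.379 and −0.452 in the TKO libraries and −0.027, −0.030 and 0.064 in the WT libraries. Of the 10 genes before it 1 fell, and of the 10 after it 0 fell, with medians of 0.03 and 0.06. The genes with the smallest adjusted p, named after their values were seen, were the transketolase gene Tkt, at 154 FPKM in TKO and 270 FPKM in WT (means), and Rps24. Tkt fell by 0.80 ± 0.07 (adjusted p = 7.1e-05). Rarb lies outside this stretch. The edges were chosen after the values were seen, and no test was run.

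**Figure D5:**
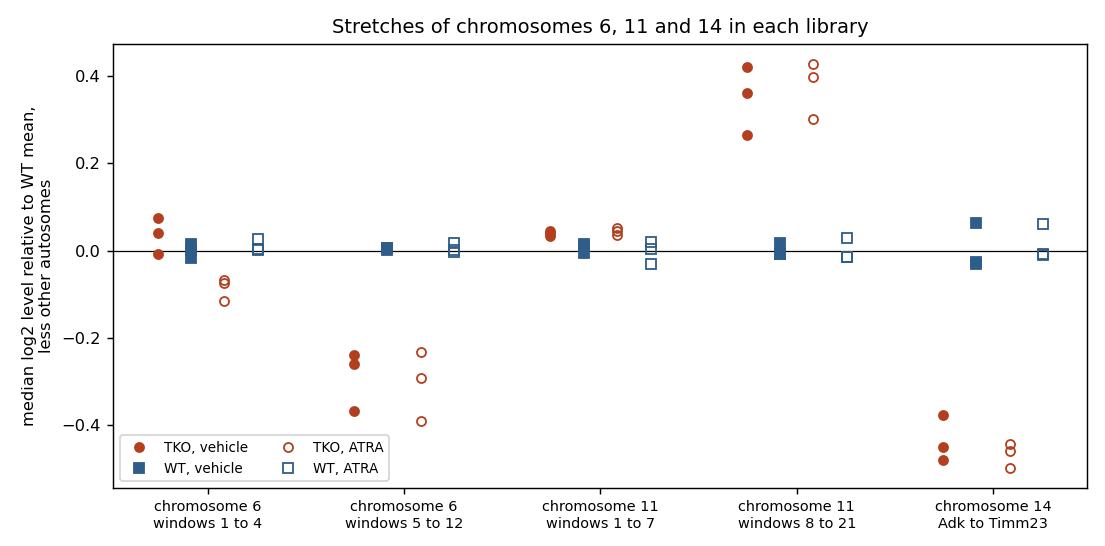
Median log2 level of the tested genes of 5 chromosome stretches relative to the WT mean of the same treatment, less the median over autosomes other than 6 and 11, in each of 12 libraries. Circles are TKO and squares WT, filled for vehicle and open for ATRA. The stretches after the steps on chromosomes 6 and 11 and the chromosome 14 stretch separate the genotypes in both treatments. So does the stretch before the step on chromosome 11, by less (TKO minus WT 0.033 in vehicle and 0.047 with ATRA). The stretch before the step on chromosome 6 overlaps in vehicle but not with ATRA (−0.097).

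Some genes on chromosome 6 changed by more than these medians. Stra8 (chromosome 6, 34920163 to 34939344) lies before the step. After it, Camk1, a calcium-dependent kinase gene, had 3.85, 3.04 and 3.96 FPKM in TKO libraries, against 19.8, 35.2 and 19.9 FPKM in WT libraries and fell by 2.44 ± 0.21 (adjusted p = 4.6e-05). Bhlhe40, a repressor of the circadian and hypoxia responses, had 5.67, 6.95 and 6.22 FPKM in TKO libraries, against 27.9, 27.1 and 32.4 FPKM in WT libraries and fell by 2.05 ± 0.16 (adjusted p = 3.0e-05). Gata2, a factor of blood and trophoblast, had 2.14, 1.06 and 3.44 FPKM in TKO libraries, against 9.24, 6.32 and 5.37 FPKM in WT libraries and fell by 1.35 ± 0.37 (adjusted p = 0.0216), a call lost without the D or F library of TKO or the D library of WT. The magnesium transporter gene Slc41a3 fell by 1.34 ± 0.28 (adjusted p = 0.00596), and the cap-binding protein gene Eif4e3 fell by 1.33 ± 0.22 (adjusted p = 0.0016). With ATRA Gata2 differed by 0.37 and did not keep its direction.

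Of the largest rises on chromosome 6, those of Mest, Parp12, Flnc and Aass lie before the step, and those of Foxi3 and Ldhb lie after it, where most genes had a negative difference. Mest, an imprinted gene expressed from the paternal allele, had 75.7, 82.5 and 76.95 FPKM in TKO libraries, against 37.2, 28.3 and 34.7 FPKM in WT libraries and rose by 1.21 ± 0.12 (adjusted p = 1.1e-04). The forkhead gene Foxi3 had 5.03, 2.88 and 6.24 FPKM in TKO libraries, against 1.295, 0.677 and 0.9496 FPKM in WT libraries and rose by 1.498 ± 0.27 (adjusted p = 0.00252). Parp12, Flnc (filamin C) and Aass, which breaks down lysine, rose by 1.30, 1.25 and 1.23 on the log2 scale (adjusted p = 0.00347, 0.00332 and 0.00168). The lactate dehydrogenase subunit gene Ldhb had 644, 413 and 988 FPKM in TKO libraries, against 334, 366 and 165 FPKM in WT libraries and rose by 1.23 ± 0.39 (adjusted p = 0.0386), a call that did not hold in every alternative fit.

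On chromosome 11 the largest rises were those of Hand1, Ntn1, Tex19.1, Krt19, Notum and Bcl6b. Hand1, a factor of trophoblast giant cells and the heart, had 14.2, 19.6 and 4.26 FPKM in TKO libraries, against 1.17, 0.632 and 0.485 FPKM in WT libraries and rose by 2.76 ± 0.53 (adjusted p = 0.00381). Ntn1, the guidance protein netrin 1, had 27.6, 11.4 and 16.6 FPKM in TKO libraries, against 4.78, 0.797 and 1.02 FPKM in WT libraries and rose by 2.74 ± 0.44 (adjusted p = 0.00151). All TKO libraries were above all WT libraries for both, with a wide spread within TKO for Hand1. Hand1 (chromosome 11, 57828705 to 57832818) lies before the step, outside the raised stretch. Tex19.1, which restrains transposons in germ cells and placenta, had 56.2, 88.8 and 46.6 FPKM in TKO libraries, against 14.7, 24.8 and 18.1 FPKM in WT libraries and rose by 1.66 ± 0.29 (adjusted p = 0.00234). The repressor gene Bcl6b rose by 1.51 ± 0.19 (adjusted p = 3.2e-04).

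Pttg1, which encodes securin, the inhibitor of separase in mitosis, had the largest fall on chromosome 11. The gene (chromosome 11, 43420250 to 43426251) lies before the step. It had 23.2, 17.4 and 25.3 FPKM in TKO libraries, against 102, 159 and 103 FPKM in WT libraries, with no overlap, and fell by 2.40 ± 0.22 (adjusted p = 6.6e-05). Fam211a fell by 1.84 ± 0.26 (adjusted p = 7.5e-04), and Krt17, Atp1b2, Myl4 and Dnaic2 fell by 1.15, 1.15, 1.05 and 0.96 on the log2 scale (adjusted p = 0.0121, 0.0056, 0.00206 and 0.0326). Krt17 had 9.17, 17.1 and 11.3 FPKM in TKO libraries, against 25.0, 30.05 and 29.6 FPKM in WT libraries and differed by 0.93 in the other direction with ATRA, where it passed. The vehicle call of Krt17 was lost without the D library of TKO, and that of Dnaic2 without the F library of TKO or the D or F library of WT.

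Around the receptor genes, the 10 tested genes on each side were counted. Of the 20 neighbours of Rara, in the raised stretch of chromosome 11, 8 were higher and 2 lower, with a median of 0.27. Of the 20 neighbours of Rarb 2 were higher and 4 lower (median −0.15), against 11.8% higher and 12.8% lower over all genes. The next gene to Rarb, Top2b, which encodes DNA topoisomerase II beta, had 11.04, 9.35 and 13.6 FPKM in TKO libraries, against 22.6, 23.03 and 20.2 FPKM in WT libraries and fell by 0.91 ± 0.12 (adjusted p = 5.4e-04). Of the 20 neighbours of Rarg 2 were higher, the keratin genes Krt8 and Krt18, and 2 lower, with a median of −0.03.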

How the data were processed

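RNA was purified with RNeasy columns, made into TruSeq libraries and read single-end on a HiSeq4000, per the labels' protocols. The authors deposited 1 table of FPKM values, a unit read from the numbers themselves and from Cufflinks, named with STAR and GRCm38, but no versions, in the submitters' processing notes. Depth and strand setting were not given in the sources used here. Thus no counting interval was possible, and genes that overlap another gene on the opposite strand, or have near-identical copies, are uncertain. The table's positions are not GRCm38 positions (524 of 11576 matched genes had a midpoint within 1000 bp). They served only for chromosome and gene order, and printed coordinates come from GENCODE vM21 by symbol.

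Of 23686 rows 18 exact repeats were removed, and the 12362 genes reaching 1 FPKM in 3 or more libraries entered limma 3.58.1 in R 4.3.3. The fit used log2(FPKM + 1), 1 mean per group over 12 libraries, a mean-variance trend, robust moderation and Benjamini-Hochberg adjustment at 0.05. Log2 differences are TKO minus WT ± SE on this scale, which understates changes of low genes, and "passed", "rose" and "fell" refer to this test. FPKM divides by total signal, so a difference is relative to the other genes. Columns were assigned to groups by name, not to numbered samples. The comparison, the gene lists and the rule for naming genes were chosen with earlier results of these data known. The rule took the receptor genes and their neighbours, the largest rises and falls among passing genes whose libraries do not overlap (12 each off chromosomes 6 and 11, 6 each on either; mean of at least 1 FPKM in the higher group; no predicted, small RNA or repeated genes), and up to 4 members per list by adjusted p. Other members are given as levels, and 2 genes that the rule took are not reported here. Lists are described by counts and medians, without a set test, and share members. Alternatives were the pseudocount, the filter, the scaling, the libraries fitted, the moderation, a block by letter and leaving out each library.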

Additional observations from a re-analysis of the deposited data

Results flagged for a closer look

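The libraries given ATRA enter the vehicle comparison through the filter on low values and the estimate of spread alone. The chromosome stretches stood apart in them as well, with every TKO library beyond every WT library. With ATRA the stretch of chromosome 6 from Gadd45a to Bicd1 had a TKO minus WT difference of −0.3112 (log2, relative to autosomes other than 6 and 11), against −0.2925 in vehicle. The stretch of chromosome 11 from Rpl26 to B3gntl1 had a difference of 0.3764 with ATRA and 0.3482 in vehicle. For the stretch of chromosome 14 from Adk to Timm23 the difference was −0.4809 with ATRA and −0.4395 in vehicle. The order of the libraries within TKO on chromosomes 6 and 11 was D farthest from WT and G nearest in both treatments. The stretches were chosen on the vehicle libraries.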

How the results depend on the processing

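The count of passing genes was 3046, and 1934 to 2708 in fits that left out 1 library, with 1942 without the D library of TKO and 1934 without the D library of WT. It was 2217 to 3328 under the other alternatives, and 2179 of the 2217 genes from the 6 vehicle libraries alone also passed in the fit of all 12. The chromosome differences were −0.2138 to −0.167 (chromosome 6) and 0.2241 to 0.2689 (chromosome 11) without 1 library. Without a filter on low values they were −0.03539 and 0.1012, as genes at or near 0 in both genotypes enter the medians. With column letters as a replicate block 3328 genes passed, of which 2890 also passed without it, and the chromosome differences stayed at −0.192 and 0.2449. Same-letter libraries of TKO and WT correlated at 0.287, −0.43 and −0.47 in their deviations from the group mean. Pairs with different letters ran from −0.405 (D of TKO with G of WT) to 0.6 (F of TKO with G of WT). Deviations cancel out within a group of so few libraries, so these values cannot settle whether the letters pair the genotypes. The glycolysis gene Gapdh, lower in the fit reported, had a difference of 0.04516 after quantile normalization. Of 154 named genes recomputed under 14 alternatives, 126 kept their call and direction in each alternative that tested them (a filter at 5 FPKM tested fewer), and the other 28 lost or gained a call in at least 1, Gapdh among them. Total depth is unknown, so no counting error can be given for low genes.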

Other observations

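Most tested genes of the Y chromosome were higher in TKO. Of 4 tested members 3 rose and 0 fell (75% and 0%, against 11.8% and 12.8% of all genes). Another 5 members were below the filter on low values. Ddx3y, a helicase gene, had 30.1, 18.2 and 24.97 FPKM in TKO libraries, against 0.993, 2.40 and 1.595 FPKM in WT libraries and rose by 3.26 ± 0.28 (adjusted p = 4.7e-05). Uty, a histone demethylase homologue, had 8.13, 4.16 and 7.23 FPKM in TKO libraries, against 0.313, 0.308 and 0.332 FPKM in WT libraries and rose by 2.47 ± 0.21 (adjusted p = 4.5e-05), and the ubiquitin-activating enzyme gene Uba1y rose by 1.95 ± 0.19 (adjusted p = 8.1e-05). Eif2s3y, a translation factor gene, had 45.3, 40.5 and 48.7 FPKM in TKO libraries, against 24.7, 40.6 and 23.2 FPKM in WT libraries, which overlap. It did not pass (limma adjusted p = 0.0783). Xist, which silences the X chromosome in female cells, had 0.978 to 1.22 FPKM in TKO libraries and 0.411 to 0.837 FPKM in WT libraries. On the X chromosome 87 of 427 tested genes rose and 43 fell (20.4% and 10.1%), and the difference of its median was 0.081. Its window from Pgk1 to Tceal1 had a median of 0.30, with 40.4% of genes higher.

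Imprinted genes included rises of large size. Of 30 tested members 6 rose and 1 fell (20% and 3.33%, against 11.8% and 12.8% of all genes), with a median of 0.03. Without the F library of TKO or the G library of WT 2 fell. Beside Plagl1, Mest and Igf2, Nap1l5, a gene of chromosome 6 expressed from the paternal allele, had 0.962 to 1.25 FPKM in TKO libraries and 0 to 0.0423 FPKM in WT libraries and rose by 1.06 ± 0.12 (adjusted p = 1.7e-04). Ndn (necdin) had 7.69, 9.43 and 6.34 FPKM in TKO libraries, against 4.19, 4.71 and 4.002 FPKM in WT libraries and rose by 0.72 ± 0.13 (adjusted p = 0.00309). H19, the noncoding RNA beside Igf2, had 0.9704, 3.92 and 1.56 FPKM in TKO libraries, against 0.125, 0.225 and 0.0231 FPKM in WT libraries, and Cdkn1c, an inhibitor of the cell cycle, had 9.33, 7.304 and 6.89 FPKM in TKO libraries, against 17.7, 12.2 and 23.9 FPKM in WT libraries.

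Neural genes split by member, with 3 of 10 tested genes higher and 2 lower (30% and 20%, against 11.8% and 12.8% of all genes). The neurofilament genes Nefl and Nefm rose by 1.90 ± 0.19 (adjusted p = 1.1e-04) and 1.12 ± 0.13 (adjusted p = 2.6e-04). Nefl had 10.5, 7.05 and 7.02 FPKM in TKO libraries, against 1.76, 1.53 and 1.04 FPKM in WT libraries. Of 25 axon guidance genes 5 rose and 6 fell (20% and 24%), and 3 rose without the D or the F library of WT. Ephb2, an ephrin receptor, had 3.22, 3.14 and 4.79 FPKM in TKO libraries, against 13.5, 10.7 and 11.2 FPKM in WT libraries and fell by 1.45 ± 0.18 (adjusted p = 3.7e-04), and its ligand gene Efnb2 had 2.21, 1.77 and 2.04 FPKM in TKO libraries, against 0.571, 0.437 and 0.817 FPKM in WT libraries and rose by 0.91 ± 0.12 (adjusted p = 5.3e-04). Of 13 trophoblast genes 2 rose and 3 fell (15.4% and 23.1%, against 11.8% and 12.8% of all genes). The number that fell was 0 without the D or the F library of TKO or the D library of WT, and the number that rose was 1 without the D or G library of TKO or the D or F library of WT. Off chromosomes 6 and 11, 1 of 8 tested trophoblast genes rose and 1 fell (12.5% each). Beside Hand1 and Gata2, the factor genes Tead4 and Tfap2c fell by 0.47 ± 0.13 (adjusted p = 0.0253) and 1.25 ± 0.36 (adjusted p = 0.0284). Tead4 lies on chromosome 6, as Gata2 does. Cdx2, Gata3, Elf5 and Plac1 stayed under 1 FPKM in every vehicle library. Of the 7 trophoblast markers checked the summed level was 6.66 to 22.5 FPKM in TKO libraries and 2.78 to 3.39 FPKM in WT libraries, and Hand1 made up most of it in TKO.

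In the cell cycle list 3 of 37 tested genes rose and 8 fell (8.11% and 21.6%, against 11.8% and 12.8% of all genes). Off chromosomes 6 and 11, 2 of 30 rose and 5 fell (6.67% and 16.7%). Cdk6, a kinase of early G1 phase, had 10.4, 7.25 and 9.77 FPKM in TKO libraries, against 3.399, 2.28 and 3.04 FPKM in WT libraries and rose by 1.37 ± 0.16 (adjusted p = 2.5e-04). Cdc6, a licensing factor that neighbours Rara on chromosome 11, rose by 0.97 ± 0.18 (adjusted p = 0.00353). Cdkn2a, a cell cycle inhibitor, fell by 0.49 ± 0.09 (adjusted p = 0.00264). Over the whole list 2 fell without the F library of TKO. The number was 3 or 4 without the D library of TKO or the D or F library of WT. Of 90 respiratory chain genes 6 rose and 15 fell (6.67% and 16.7%), and of 25 glycolysis genes 2 rose and 3 fell (8% and 12%). Without the D library of TKO 0 glycolysis genes rose and 0 fell, without its F library 1 rose and 5 fell, and 3 respiratory chain genes rose without the D library of TKO or of WT. The number of glycolysis genes that rose was 0 or 1 in every fit that left out 1 library, and 1 fell without the D library of WT.

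Several other lists had few calls, beside 11.8% higher and 12.8% lower over all genes. Of 23 genes of FGF and ERK feedback 4 rose and 1 fell (17.4% and 4.35%). Of 20 of LIF and STAT3 signalling 2 rose and 1 fell (10% and 5%), with the STAT5 target gene Cish lower by −0.68 ± 0.10 (limma adjusted p = 8.4e-04). Of 27 Polycomb genes 5 rose and 2 fell (18.5% and 7.41%), but off chromosomes 6 and 11 the numbers were 2 and 0 of 17. Of 15 DNA methylation genes 2 rose and 1 fell (13.3% and 6.67%), of 15 germline genes 2 and 2 (13.3% each), and of 10 retinoid metabolism genes 1 and 2 (10% and 20%). Of 20 Hox genes, 8 on chromosome 6 and 10 on chromosome 11, 0 rose and 2 fell (10%), Hoxa4 on chromosome 6 among them. Of 7 mesoderm genes 1 rose and 1 fell (14.3% each), with 15 more below the filter on low values. Of 6 fibroblast genes 1 rose and 0 fell (16.7% higher), with 13 below the filter. Of 2 two-cell-like genes 1 rose, with 14 below the filter, too few to set against all genes. Leaving out 1 library moved several of these counts. The LIF and STAT3 genes that rose were 0 without the D library of TKO or the F library of WT, and 0 in the 6 vehicle libraries alone. The germline genes that rose were 0 without the D or F library of TKO or the D or G library of WT. The FGF and ERK genes that fell were 3 without the F library of WT, and the Polycomb genes that rose were 2 without the D library of TKO or the D or F library of WT. The DNA methylation genes that fell were 0 without the D library of WT and 2 without its F library. In each fit that left out 1 library other than the G library of WT, 1 germline gene and 1 retinoid metabolism gene fell and the fall of the mesoderm gene was lost. The two-cell-like rise was lost without the F library of TKO. None of the 2 tested X inactivation genes passed in limma.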
